A study of Mus musculus with 54 samples.

Results

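The genes described here are the molecular chaperones of the heat shock protein (HSP) families, their J-protein partners and the CCT chaperonin. They were taken by symbol from the deposited liver table: 79 rows carried a name of these families, 7 pseudogene rows and 4 genes of the endoplasmic reticulum (Hspa5, Dnajb9, Dnajb11 and Dnajc3) were left out, and 68 genes of 20162 rows remained. The tests took in 55 of these, whose mean over the 54 samples reached 1, and 13 stayed below it. The 68 genes were 13 of the HSP70 and HSP110 families, 2 HSP90 genes, 3 of the mitochondrial chaperonin, 5 small heat shock proteins, 4 class A, 9 class B and 23 class C J-proteins, and 9 genes of the CCT chaperonin.

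The mice were C57BL/6J males that received a high-fat diet from the age of 8 weeks and, for 20 weeks, daily pellets with di-isononyl phthalate (DINP), a plasticizer. The 4 groups were a placebo control (n = 14) and doses of 1.5 (n = 13), 15 (n = 13) and 150 mg/kg bw/d (n = 14), and no group was fed a standard diet. RNA from the medial liver lobe was sequenced with a kit that reads transcript ends, and 1 library stands for 1 mouse. The values are scaled expression values: TPM (a length-scaled transcript share) rounded to whole numbers and divided by a size factor of the sample, so the number of reads behind a value is unknown and about 1 is the smallest step. Differences are given as log2 fold changes of (value + 1) with their standard error, and a gene was called where the Benjamini-Hochberg adjusted p over all 11431 tested rows was under 0.05 in limma.

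HSP70 proteins bind and release unfolded polypeptides with the help of J-proteins, which bring in the client and start ATP hydrolysis, and of HSP110 proteins, which exchange the nucleotide. HSP90 acts later on near-native clients such as receptors and kinases, small heat shock proteins hold aggregation-prone proteins, and the barrel-shaped chaperonins, CCT in the cytosol and Hspd1 with its lid Hspe1 in the mitochondrion, fold proteins in a closed chamber. In the liver, an organ with many mitochondria and a high output of secreted protein, most of these genes are active without stress, and heat shock factor 1 raises a subset of them when proteins unfold.

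Before the results, 8 of the 54 libraries have to be set aside by name: replicates 4 to 9 at 15 mg/kg, control replicate 1 and replicate 10 at 150 mg/kg. On the first principal component of the 11376 tested rows that are not among the chaperone genes (13.7% of the variance) their scores were 25.3 to 52.8, and the other 46 libraries reached at most 8.11. The 292 rows with a symbol of Rpl or Rps and a number, pseudogenes not left out, summed to 25114 to 33721 in the 8 and to 16429 to 23342 in the others. The 2 rows of the mitochondrial genome (symbols starting with mt-) summed to 84071 to 109536 against 90990 to 168075. Because 6 of the 13 mice at 15 mg/kg are among them, the calls and the values of the named chaperone genes at that dose are given with all 54 libraries and with the other 46, and the part of this difference in the results was not tested. Hepatocyte markers were high in every group (sums of 8 genes from 23193 to 45914), with 1 gene called, Ttr at 15 mg/kg (0.42 ± 0.13, adjusted p = 0.0231, not called without the 8 libraries). Of 7 endothelial markers Pecam1 was called at 15 mg/kg (-0.52 ± 0.11, adjusted p = 0.000867) but not without the 8 libraries, where it was at 1.5 mg/kg (-0.34). Limma called none of the Kupffer cell, stellate cell, cholangiocyte, erythroid, skeletal muscle, adipocyte or pancreas markers at any dose, and an unadjusted p under 0.05 was reached most often by erythroid genes at 1.5 mg/kg (3 of 5). Single mice still stood out: skeletal muscle sums reached 76.5 in control and 231 at 15 mg/kg, against medians of 0. Cholangiocyte sums reached 153 and 254 in these groups, against medians of 21.3 and 20.1, and their part in the values below was not tested. As RNA of whole tissue was measured, fewer cells of a type and less RNA per cell cannot be told apart in any value below.

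On the length-scaled values of the table, the control mice expressed Hsp90ab1, the constitutive cytosolic HSP90, at a mean of 489, the highest of the 68 genes. It was followed by Hspe1 (313), Hsp90aa1 (308), the constitutive HSP70 Hspa8 (137), the mitochondrial HSP70 Hspa9 (133) and the J-protein Dnajc19 (120). Hspe1 and Hsp90aa1 differed by less than their spread in this order. At the other end stood the stress-inducible HSP70 genes: Hspa1a was listed at 0 in 8 of 14 control mice and in 9, 12 and 13 mice at 1.5, 15 and 150 mg/kg, and its highest value in any mouse was 1.06. Hspa1b was likewise at 0 in 10 of 14 control mice and in 10, 11 and 13 mice at the doses, with a highest value of 1.11. These values are at most about 1 step, so no comparison was made for either gene, and the paralogs share 63.8% (Hspa1a) and 67.6% (Hspa1b) of their 31-base words. The other 11 genes under the filter were Hspa1l, Hspa2, Hspa12a, Hspa12b, Hspb2, Hspb9, Dnaja4, Dnajb5, Dnajb7, Dnajb13 and Cct6b.

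The genes also differed in how steady they were from mouse to mouse. Over the 13 control mice outside the 8 libraries, the coefficient of variation was lowest for Cct6a (5.76%), Cct8 (7.10%), Dnajc21 (7.66%), Cct4 (7.74%), Hspd1 (8.95%) and Hspa9 (9.04%). It was 27.2% for Hspa8, 29.5% for the HSP110 gene Hsph1 and 33.7% for the small heat shock protein Hspb1, although Hspa8 was expressed at about the level of Hspa9. Among genes with a control mean from 50 to 1000, the median was 12.3% over 13 chaperone genes and 13.8% over 1576 rows.

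The comparisons with control called 1, 14 and 2 of the 55 tested genes at 1.5, 15 and 150 mg/kg. Over all tested rows the called share was 1.2%, 14.2% and 2.17%, against 1.82%, 25.5% and 3.64% of the chaperone genes. At 15 mg/kg 11 genes rose (7.57% of all rows rose) and 3 fell (6.61% of all rows fell), and the genes called at 1.5 and 150 mg/kg were all lower (0.525% and 0.682% of all rows). A log2 fold change beyond 0.5 was reached as well by 1, 3 and 0 genes at the 3 doses (0.367%, 3.72% and 0.84% of all rows), Hspa4l at 1.5 mg/kg and Hspe1, Dnajc19 and Dnajc7 at 15 mg/kg. In the other 46 libraries limma called 1, 0 and 0 genes beyond 0.5 (0.551%, 1.22% and 1.09% of all rows), so that Hspa4l passed and none of these 3 genes did at 15 mg/kg. Without the 8 libraries, 2, 6 and 2 genes were called, or 3.64%, 10.9% and 3.64%, against 2.53%, 5.31% and 3.62% of all rows, and the 6 at 15 mg/kg all rose (2.76% of all rows did). The share at 150 mg/kg was thus near that of all rows in the smaller set. The median log2 fold change over the 55 genes at the 3 doses was -0.01, 0.02 and 0.06, beside 0.00, -0.00 and -0.01 over all tested rows.

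**Figure D1:**
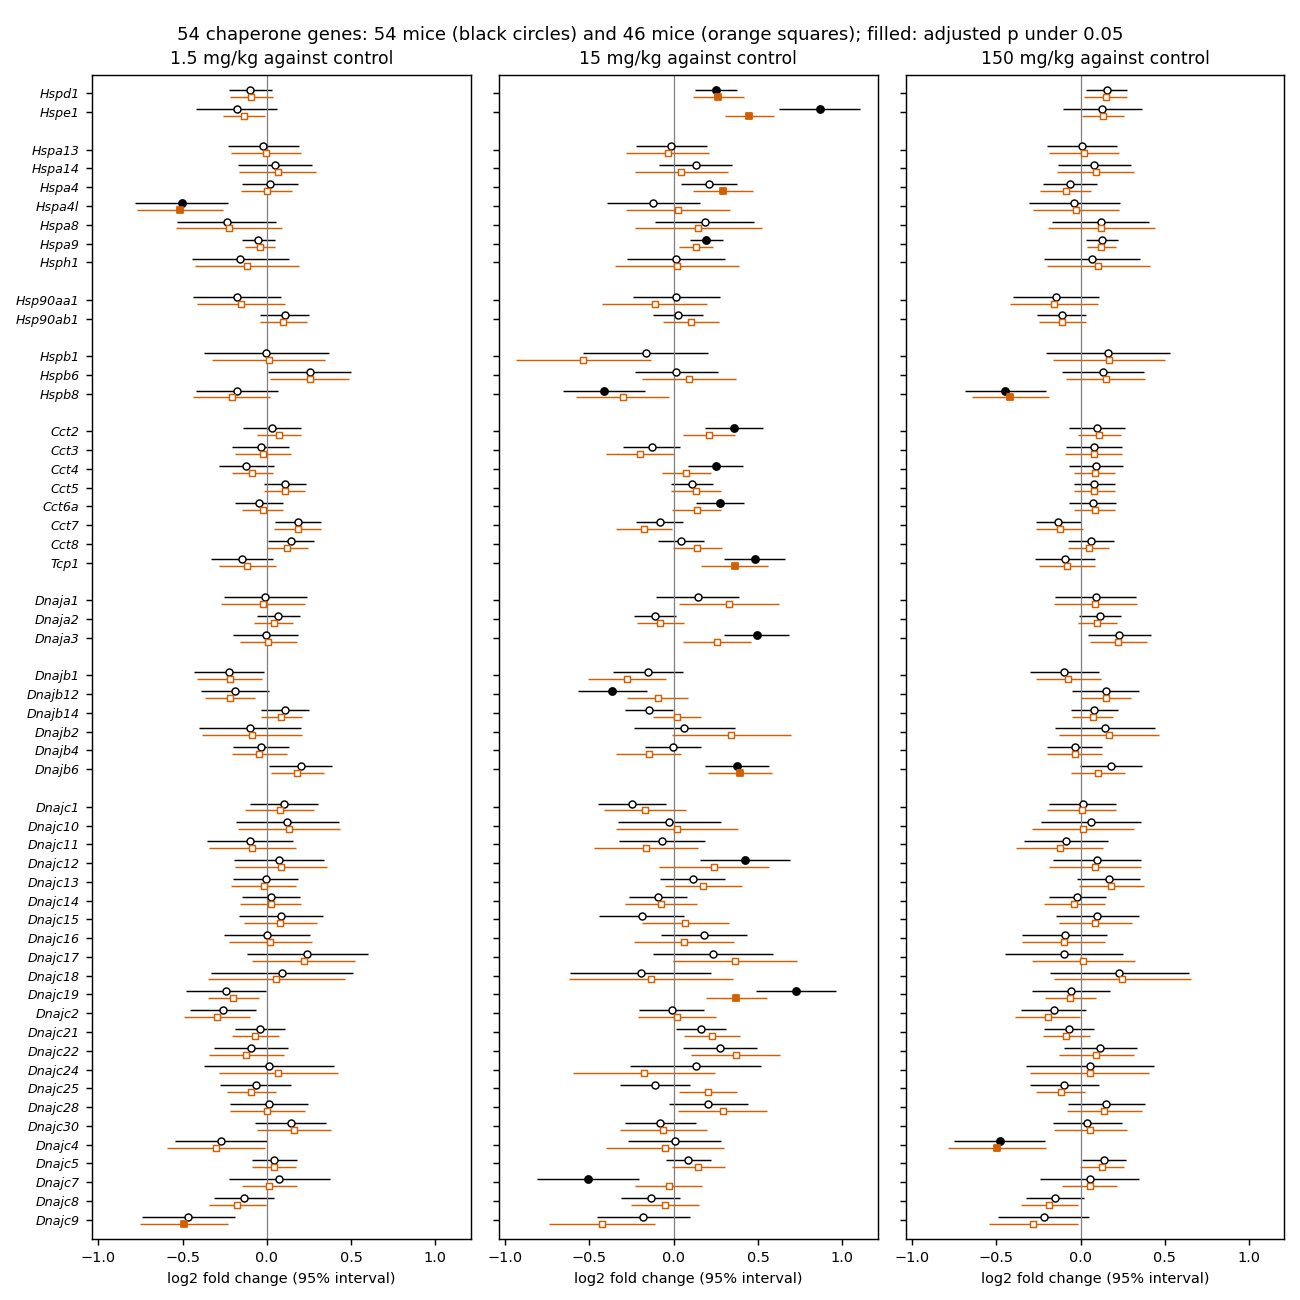
Log2 fold change of (value + 1) against control (horizontal axis, with 95% intervals) for 54 of the 55 tested chaperone genes, by family from top to bottom, with a panel for each DINP dose. Black circles are fits on 54 mice and orange squares on the 46 mice outside the 8 libraries that stand apart, and filled symbols have an adjusted p under 0.05 (limma). Filled symbols are most frequent at 15 mg/kg, where Hspe1 (0.87), Dnajc19 (0.72), Dnaja3 (0.49) and Tcp1 (0.48) have the largest rises.

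The mitochondrial chaperonin rose at 15 mg/kg. Hspe1, the lid of the chaperonin chamber, ranged from 255 to 455 in control mice (median 301), from 231 to 319 at 1.5 mg/kg (median 274), from 314 to 915 at 15 mg/kg (median 486) and from 285 to 479 at 150 mg/kg (median 328). All 13 mice at 15 mg/kg were above the control median and 7 were above every control mouse, so the groups overlapped only in part. The log2 fold change was 0.87 ± 0.12 (1.82-fold, adjusted p = 1.73e-06, limma) at 15 mg/kg. It was -0.18 ± 0.12 (adjusted p = 0.575) at 1.5 mg/kg and 0.13 ± 0.12 (adjusted p = 0.679) at 150 mg/kg.

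Within the 15 mg/kg group, Hspe1 was 674 to 915 in the 6 libraries that stand apart and 314 to 486 in the other 7. The libraries that stand apart from the other groups had 455 (control) and 479 (150 mg/kg), lower than each of the 6 and too few for a test. Without all 8 libraries, the control range was 255 to 347, 6 of the 7 mice at 15 mg/kg were above it, and the rise was 0.45 (adjusted p = 0.000131, limma). With the first component as a covariate, an alternative chosen after seeing the data, the rise at 15 mg/kg was 0.58 (adjusted p = 5.73e-10), and at 150 mg/kg Hspe1 was then called too, at 0.25 (adjusted p = 0.00272).

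Hspd1, which forms the chamber, differed by less and more evenly between libraries. It ranged from 75.1 to 98.1 in control mice (median 92.7), from 67.2 to 99.2 at 1.5 mg/kg (median 84.7), from 88.6 to 124 at 15 mg/kg (median 112) and from 80.6 to 120 at 150 mg/kg (median 99.7). At 15 mg/kg 8 of 13 mice were above every control mouse, and in the libraries that stand apart the values were 89.5 to 122, inside the range of the other 7. The rise was 0.25 ± 0.06 (adjusted p = 0.00434) with all libraries and 0.26 (adjusted p = 0.0275) without the 8. At 150 mg/kg, 9 of 14 mice were above every control mouse, but the log2 fold change of 0.15 ± 0.06 did not pass the test (adjusted p = 0.214, limma).

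Both genes lie head to head on mouse chromosome 1 (GRCm38, GENCODE M21): Hspd1 at chr1:55077835-55088243 on the minus strand and Hspe1 at chr1:55088132-55091307 on the plus strand, so that their annotated 5′ ends overlap. The pseudogene Hspd1-ps3 shares 73.3% of its 31-base words with Hspd1 and had a mean of 13.2 in control mice and 12.7 at 15 mg/kg, and the authors' counting could split reads between the copies. The promoter window of Hspe1 (250 bases before to 50 after the start, RefSeq, GRCm38.p6) is shown with that of Hspd1. Windows were also chosen for genes called against control in the HSP70, HSP110, HSP90 and class A or B J-protein families. That of Hspa9 is not printed. Capitals mark matches to the heat shock element letters GAANNTTC or TTCNNGAA, to the E-box CACGTG or to the CCAAT box (CCAAT or ATTGG), searched on both strands.
Hspe1 promoter, chr1:55087898-55088197, plus strand: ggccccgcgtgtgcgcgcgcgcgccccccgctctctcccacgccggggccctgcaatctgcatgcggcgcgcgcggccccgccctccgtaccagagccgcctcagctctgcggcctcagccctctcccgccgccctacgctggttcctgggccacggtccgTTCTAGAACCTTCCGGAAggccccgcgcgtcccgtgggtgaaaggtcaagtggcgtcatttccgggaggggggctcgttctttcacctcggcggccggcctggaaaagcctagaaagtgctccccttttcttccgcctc
Hspd1 promoter, chr1:55088194-55088493, minus strand: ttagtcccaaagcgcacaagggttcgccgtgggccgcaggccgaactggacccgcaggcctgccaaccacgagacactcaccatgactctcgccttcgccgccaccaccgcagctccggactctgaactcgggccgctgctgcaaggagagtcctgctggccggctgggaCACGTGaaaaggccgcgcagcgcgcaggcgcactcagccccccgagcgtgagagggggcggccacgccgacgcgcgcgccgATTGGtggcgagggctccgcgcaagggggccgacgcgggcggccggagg

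The Hspe1 window holds 3 overlapping heat shock element matches in 1 run of capitals, starting 89, 84 and 79 bases before the start. A second Hspd1 window, at chr1:55087883-55088182 on the minus strand, shares 285 bases with the Hspe1 window and holds the same 3 matches read from the other strand. The Hspd1 window printed here, which overlaps the Hspe1 window by 4 bases, holds an E-box match 80 bases before its start and a CCAAT match at base 2 after it.

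Among the other mitochondrial chaperones, Hspa9, the HSP70 that pulls proteins through the inner membrane and refolds them, was 115 to 155 in control mice (median 130) and 138 to 186 at 15 mg/kg (median 149). All 13 mice at 15 mg/kg were above the control median and 4 were above every control mouse. These 4 were all among the 6 libraries that stand apart at that dose. The rise was small, 0.19 ± 0.05 (adjusted p = 0.00421, limma), and it was 0.13 without the 8 libraries (adjusted p = 0.126). At 150 mg/kg 13 of 14 mice were above the control median, with a log2 fold change of 0.13 ± 0.05 that did not pass the test (adjusted p = 0.18). With the first component as a covariate, Hspa9 was called higher at 15 and at 150 mg/kg.

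Dnaja3, a J-protein partner of Hspa9 in the matrix, was 9.17 to 18.2 in control mice (median 12.8) and 12.2 to 26.6 at 15 mg/kg (median 17.5). All 6 libraries that stand apart at that dose (18.9 to 26.6) were above every control mouse, whereas the other 7 (12.2 to 17.5) overlapped with control. The rise was 0.49 ± 0.10 (adjusted p = 0.000279) with all libraries and 0.26 (adjusted p = 0.127) without the 8. Dnaja3 was called higher at 15 and at 150 mg/kg with the first component as a covariate. The gene spans chr16:4639989-4707695 on the plus strand and overlaps Vasn on the same strand, so reads of the overlap cannot be told apart.
Dnaja3 promoter, chr16:4683820-4684119, plus strand: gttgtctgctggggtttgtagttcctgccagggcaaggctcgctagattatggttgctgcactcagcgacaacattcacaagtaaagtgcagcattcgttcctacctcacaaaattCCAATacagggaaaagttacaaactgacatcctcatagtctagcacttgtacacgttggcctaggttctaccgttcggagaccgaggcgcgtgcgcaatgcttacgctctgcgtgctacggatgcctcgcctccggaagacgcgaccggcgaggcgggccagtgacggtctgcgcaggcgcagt

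The Dnaja3 window, of a gene that rose, holds no heat shock element match, and its capitals mark a CCAAT match 134 bases before the start.

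Dnajc19, the J-protein of the inner membrane import motor, had the second largest rise. It was 88.3 to 177 in control mice (median 119), 75.1 to 120 at 1.5 mg/kg (median 103), 128 to 315 at 15 mg/kg (median 201) and 87.6 to 173 at 150 mg/kg (median 110). The highest control value, 177, and the highest at 150 mg/kg, 173, were the libraries that stand apart, and the 6 at 15 mg/kg had 214 to 315. The rise at 15 mg/kg was 0.72 ± 0.12 (adjusted p = 2.28e-05, limma) with all libraries and 0.37 (adjusted p = 0.0083) without the 8, where 5 of 7 mice were above every control mouse. Its processed copy Dnajc19-ps shares 72.6% of its 31-base words with Dnajc19 and had a mean of 3.25 in control mice and 4.83 at 15 mg/kg.

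**Figure D2:**
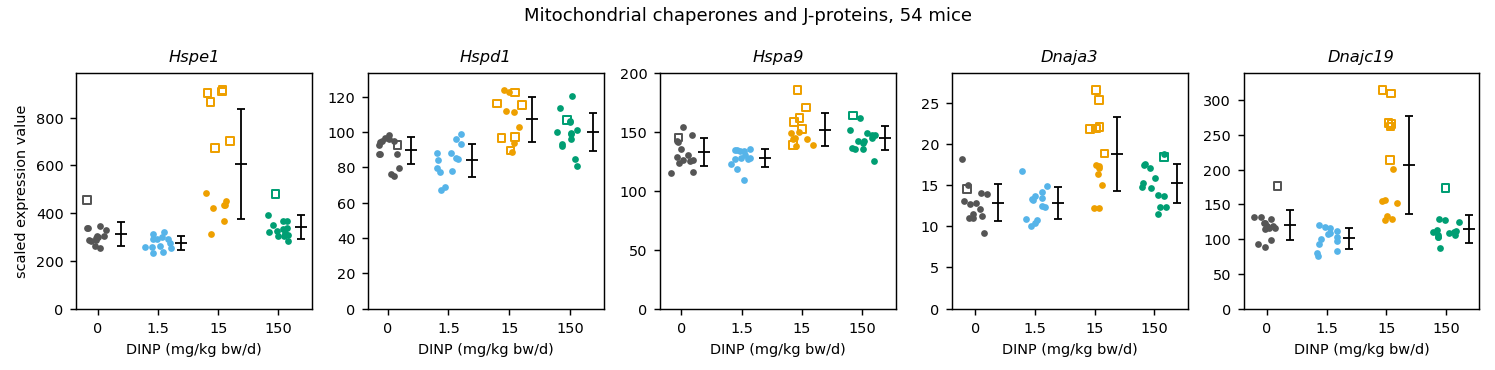
Scaled expression value (vertical axis, from 0) of 5 mitochondrial chaperone and J-protein genes in each of 54 mice by DINP dose (horizontal axis, mg/kg bw/d). Points are mice, open squares are the 8 libraries that stand apart, and black bars are the group mean ± SD. At 15 mg/kg the open squares of Hspe1 (674 to 915) and Dnajc19 (214 to 315) lie above the filled points of the same dose, whereas those of Hspd1 (89.5 to 122) do not.

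Other mitochondrial chaperones and proteases were called in both directions. Of 14 genes of a fixed list, 2 rose and 1 fell at 15 mg/kg: the protease subunit Clpp (0.24 ± 0.08, adjusted p = 0.0253), the nucleotide exchange factor Grpel1 (0.18 ± 0.06, adjusted p = 0.0475) and the import motor scaffold Timm44 (-0.49 ± 0.09, adjusted p = 0.000149). Without the 8 libraries, Timm44 alone of these was called, at -0.33. Over all tested rows 7.57% rose and 6.61% fell at 15 mg/kg, and 1.2% and 2.17% were called at 1.5 and 150 mg/kg. In the smaller set 2.53%, 5.31% and 3.62% of all rows were called at 1.5, 15 and 150 mg/kg. Timm44 also fell at 1.5 mg/kg (-0.42 ± 0.09, adjusted p = 0.00908). At 150 mg/kg 2 genes rose, Grpel2 (0.63 ± 0.15, adjusted p = 0.0158) and the mitochondrial HSP90 Trap1 (0.19 ± 0.05, adjusted p = 0.0331), and both were called without the 8 libraries as well (0.64 and 0.20).

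The CCT chaperonin, a cytosolic ring of 8 kinds of subunit that folds actin and tubulin, was called in part of its subunits. Of its 8 tested genes, Tcp1, Cct2, Cct4 and Cct6a rose at 15 mg/kg, none fell, and the median log2 fold change was 0.18. Among all tested rows 7.57% rose and 6.61% fell at that dose. In the 46 libraries Tcp1 alone of the 8 was called, and 2.76% of all rows rose. Differences between subunits were not tested. Tcp1 was 37.4 to 66.5 in control mice (median 48.5), 30.4 to 56.6 at 1.5 mg/kg (median 44.3), 51.4 to 102 at 15 mg/kg (median 72.5) and 38.3 to 58.6 at 150 mg/kg (median 46.9). All 13 mice at 15 mg/kg were above the control median and 7 were above every control mouse.

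The rise of Tcp1 at 15 mg/kg was 0.48 ± 0.09 (adjusted p = 0.000203, limma) with all libraries and 0.36 (adjusted p = 0.0225) without the 8. Cct2 rose by 0.36 ± 0.09 (adjusted p = 0.0029), Cct6a by 0.27 ± 0.07 (adjusted p = 0.00595) and Cct4 by 0.25 ± 0.08 (adjusted p = 0.0317). In the other 46 libraries these were 0.21, 0.14 and 0.07, and none of them was called (adjusted p from 0.104 to 0.612). With the first component as a covariate, Cct2 was called higher, and Cct6a and Cct4 were not called. The call of Cct4 was also lost when control replicates 13 or 14 or replicates 4, 5, 6 or 8 at 15 mg/kg were left out singly (log2 fold changes from 0.22 to 0.23, adjusted p up to 0.0744). Cct2 was 28.8 to 48.2 in the libraries that stand apart at 15 mg/kg, 29.5 to 36.7 in the other 7, and 41.6 in the control library that stands apart, the highest control value.

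The 4 other subunits were not called at 15 mg/kg, with log2 fold changes of 0.04 ± 0.07 for Cct8 and from -0.13 to 0.11 for Cct3, Cct5 and Cct7. In the 46 libraries they were 0.14 for Cct8 and -0.20, 0.13 and -0.18 for Cct3, Cct5 and Cct7, none of them called. Limma called no subunit against control at 1.5 or 150 mg/kg, where the medians were -0.00 and 0.07 and 2 and 0 subunits had an unadjusted p under 0.05. Cct7 stood out between doses, a gene named after its values were seen: its median was 50.5 at 1.5 mg/kg against 40.9 and 38.9 at 15 and 150 mg/kg and 41.8 in control mice. It was lower at 15 than at 1.5 mg/kg by 0.27 on the log2 scale (-0.27 ± 0.07, adjusted p = 0.00395), and at 150 than at 1.5 mg/kg (-0.32 ± 0.07, adjusted p = 0.00333), and without the 8 libraries these were -0.36 and -0.31, both called.

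**Figure D3:**
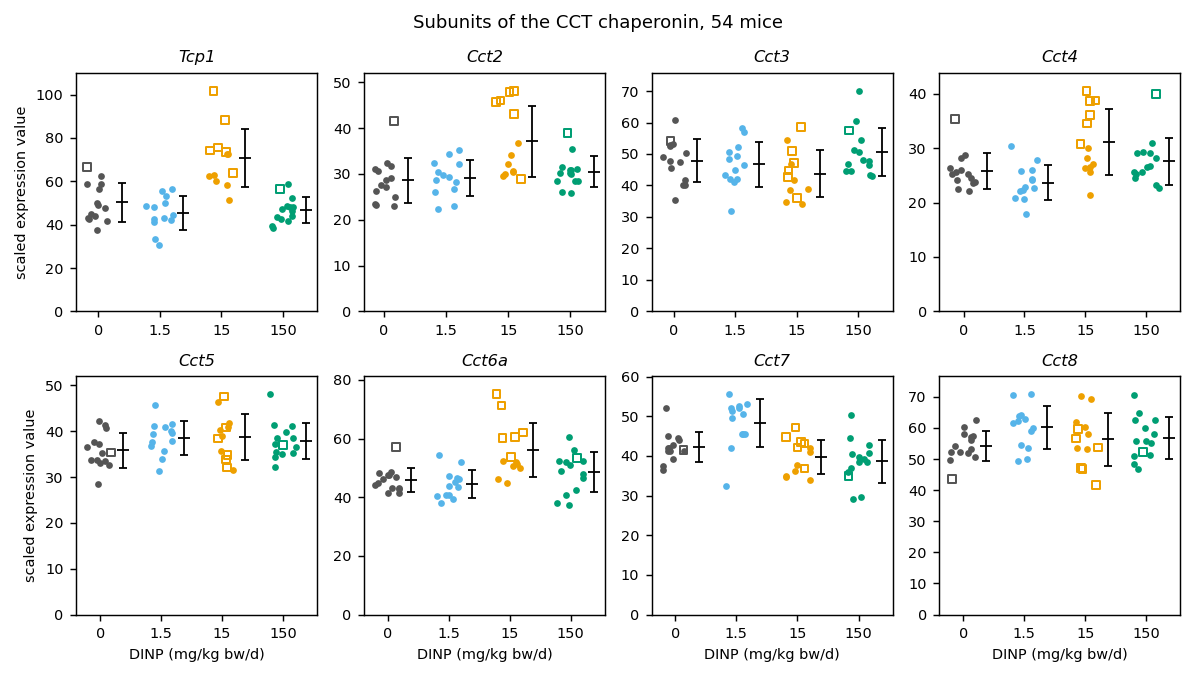
Scaled expression value (vertical axis, from 0) of the 8 tested CCT genes in each of 54 mice by DINP dose (horizontal axis, mg/kg bw/d). Points are mice, open squares the 8 libraries that stand apart, and black bars the group mean ± SD. Tcp1 at 15 mg/kg (51.4 to 102) lies highest relative to control (37.4 to 66.5), whereas Cct8 (41.7 to 70.4 against 43.6 to 62.6) overlaps with it.

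Prefoldin, which hands actin and tubulin to CCT, and other CCT regulators were examined as a list of 17 tested genes. Vbp1, a prefoldin subunit, was called at 15 mg/kg (0.50 ± 0.15, adjusted p = 0.0174), and limma called no gene of the list at 1.5 or 150 mg/kg (2 and 0 with an unadjusted p under 0.05). Vbp1 was not called without the 8 libraries, where Pdcl3 was (-0.66 ± 0.19, adjusted p = 0.0292). Of all rows, 14.2% were called at 15 mg/kg, and 5.31% without the 8 libraries.

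The cytosolic HSP70 and HSP90 genes were not called at any dose against control. Hspa8 was 94.3 to 206 in control mice (median 131), 61.8 to 217 at 1.5 mg/kg (median 113), 117 to 204 at 15 mg/kg (median 141) and 73.5 to 273 at 150 mg/kg (median 149). Its log2 fold changes were -0.24 ± 0.15, 0.18 ± 0.15 and 0.12 ± 0.14 (adjusted p from 0.444 to 0.779), and the 95% interval at 15 mg/kg was -0.11 to 0.48. In the 46 libraries the value at 15 mg/kg was 0.15 (adjusted p = 0.724). Between the doses, Hspa8 was called higher at 15 than at 1.5 mg/kg with all libraries, but not without the 8. The groups overlapped over most of their range.

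Hsph1, the HSP110 that recharges Hspa8, had medians of 10.1, 9.14, 10.6 and 10.5 in the 4 groups, and its log2 fold changes were -0.16, 0.01 and 0.07 (adjusted p from 0.72 to 0.967). Hsp90aa1, the inducible HSP90, had medians of 314, 264, 304 and 258 and log2 fold changes of -0.18, 0.02 and -0.15 (adjusted p from 0.622 to 0.958). Hsp90ab1 had medians of 488, 537, 481 and 460 and log2 fold changes of 0.11, 0.02 and -0.11 (adjusted p from 0.511 to 0.874). The values of Hsph1, Hsp90aa1 and Hsp90ab1 at 15 mg/kg changed sign when the samples were rescaled to a common sum, so no direction is given for them. In the 46 libraries they were 0.02, -0.11 and 0.10, and none was called.

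Of the HSP110 family, Hspa4l was the gene called at 1.5 mg/kg. It was 10.6 to 31.3 in control mice (median 23.6), 9.81 to 24.1 at 1.5 mg/kg (median 15.7), 9.95 to 32.4 at 15 mg/kg (median 23.1) and 16.5 to 31.1 at 150 mg/kg (median 22.1). At 1.5 mg/kg the control median exceeded 11 of 13 mice, and 2 mice were under every control value. The log2 fold change was -0.51 ± 0.14 (adjusted p = 0.046, limma), and -0.51 without the 8 libraries (adjusted p = 0.0173). It was -0.12 at 15 mg/kg (0.02 in the 46 libraries) and -0.04 at 150 mg/kg, and the differences to 1.5 mg/kg were called at both, 0.38 ± 0.14 (adjusted p = 0.0407) and 0.47 ± 0.14 (adjusted p = 0.0333). The call against control was lost in 22 of 27 fits that left out 1 mouse of these groups (log2 fold changes from -0.53 to -0.45, adjusted p up to 0.0979), and was kept without control replicates 11 or 14 or without replicates 1, 4 or 7 at 1.5 mg/kg.
Hspa4l promoter, chr3:40745363-40745662, plus strand: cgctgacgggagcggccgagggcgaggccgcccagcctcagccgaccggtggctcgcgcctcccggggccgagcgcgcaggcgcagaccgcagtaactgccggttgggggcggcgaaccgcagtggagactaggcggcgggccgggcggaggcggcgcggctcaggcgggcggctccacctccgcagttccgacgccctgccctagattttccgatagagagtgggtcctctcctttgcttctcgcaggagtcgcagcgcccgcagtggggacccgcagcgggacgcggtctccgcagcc

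The Hspa4l window, of the gene that fell at 1.5 mg/kg, has no capitals, as none of these letters stands in it. Hspa4, another HSP110 gene, was called at 15 mg/kg without the 8 libraries (0.29, adjusted p = 0.0437) but not with all of them (0.21 ± 0.08, adjusted p = 0.0769), and it is named after its values were seen. It was also called higher at 15 mg/kg with the first component as a covariate.

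The small heat shock protein Hspb8, which works with the co-chaperone Bag3 in clearing misfolded proteins, was lower at both higher doses. It was 43.6 to 92.5 in control mice (median 70.7), 35.5 to 85.0 at 1.5 mg/kg (median 62.7), 37.8 to 75.9 at 15 mg/kg (median 49.3) and 28.7 to 69.0 at 150 mg/kg (median 50.8). All 14 mice at 150 mg/kg and 12 of 13 at 15 mg/kg were below the control median, and 4 and 2 were below every control mouse.

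The log2 fold change of Hspb8 was called at 150 mg/kg (-0.45 ± 0.12, adjusted p = 0.0292, limma) and at 15 mg/kg (-0.41 ± 0.12, adjusted p = 0.0157). Without the 8 libraries the values were -0.42 (adjusted p = 0.0273) at 150 mg/kg and -0.30 (adjusted p = 0.199) at 15 mg/kg. At 150 mg/kg the call was lost when control replicates 8 or 10 or replicates 7 or 10 at that dose were left out singly (-0.42 to -0.39, adjusted p up to 0.0577). Bag3 was not called at any dose (-0.23 ± 0.12, 0.05 ± 0.12 and -0.31 ± 0.12, adjusted p from 0.174 to 0.828). Hspb1 varied more between mice, from 10.6 to 54.1 at 15 mg/kg and from 17.6 to 44.3 in control mice, with log2 fold changes of -0.00, -0.17 and 0.16 that were not called. In the 46 libraries its value at 15 mg/kg was -0.54 (adjusted p = 0.105), with 7 mice at 10.6 to 23.5, all below the control median of 24.3. Between 150 and 15 mg/kg Hspb1 was called in that set (0.70, adjusted p = 0.0182) and with the first component as a covariate (0.64, adjusted p = 0.0187), but not with all libraries (0.33 ± 0.19, adjusted p = 0.218). Hspb6 was not called either (0.26, 0.02 and 0.13, and 0.09 at 15 mg/kg in the 46 libraries).

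Among the cytosolic J-proteins of classes A and B, Dnaja1, a main partner of Hspa8, had medians of 76.7, 81.3, 87.3 and 84.9 and log2 fold changes of -0.01, 0.14 and 0.09 (adjusted p from 0.486 to 0.986). Dnajb1, the partner of HSP70 in disaggregation, had medians of 7.11, 5.95, 5.80 and 6.53 and log2 fold changes of -0.23, -0.15 and -0.10 (adjusted p from 0.356 to 0.73). In the 46 libraries the values at 15 mg/kg were 0.33 for Dnaja1 (adjusted p = 0.194), with all 7 mice above the control median, and -0.28 for Dnajb1 (adjusted p = 0.152), with all 7 below it. Neither was called in either set.

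Dnajb6, which keeps polyglutamine proteins from aggregating, rose at 15 mg/kg. It was 64.5 to 131 in control mice (median 89.5), 78.2 to 127 at 1.5 mg/kg (median 106), 82.4 to 171 at 15 mg/kg (median 119) and 79.4 to 175 at 150 mg/kg (median 101). At 15 mg/kg 12 of 13 mice were above the control median but only 1 was above every control mouse. The rise was 0.37 ± 0.09 (adjusted p = 0.00446) with all libraries and 0.39 (adjusted p = 0.00751) without the 8, and it was 0.20 ± 0.09 and 0.18 ± 0.09 at 1.5 and 150 mg/kg, not called.
Dnajb6 promoter, chr5:29735648-29735947, plus strand: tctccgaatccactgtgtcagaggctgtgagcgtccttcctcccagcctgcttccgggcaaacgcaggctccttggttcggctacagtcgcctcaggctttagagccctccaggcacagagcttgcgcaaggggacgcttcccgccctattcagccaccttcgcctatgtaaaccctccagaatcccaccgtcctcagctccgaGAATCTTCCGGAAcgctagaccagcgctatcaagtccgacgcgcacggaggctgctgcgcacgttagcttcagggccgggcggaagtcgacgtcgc

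The Dnajb6 window holds 2 overlapping heat shock element matches, starting 46 and 41 bases before the start, whose second has the same letters as the third match of Hspe1. A second Dnajb6 window, at chr5:29735729-29736028, holds the same matches starting 127 and 122 bases before its start. Dnajb12, a J-protein of the endoplasmic reticulum membrane, fell at 15 mg/kg (-0.36 ± 0.10, adjusted p = 0.0105). It was 9.87 to 15.9 in the 6 libraries that stand apart at that dose, 16.6 in the control library that stands apart, the lowest control value, and 17.5 to 24.7 in the other 7 mice. Without the 8 libraries the difference was -0.10 (adjusted p = 0.597).
Dnajb12 promoter, chr10:59879333-59879632, plus strand: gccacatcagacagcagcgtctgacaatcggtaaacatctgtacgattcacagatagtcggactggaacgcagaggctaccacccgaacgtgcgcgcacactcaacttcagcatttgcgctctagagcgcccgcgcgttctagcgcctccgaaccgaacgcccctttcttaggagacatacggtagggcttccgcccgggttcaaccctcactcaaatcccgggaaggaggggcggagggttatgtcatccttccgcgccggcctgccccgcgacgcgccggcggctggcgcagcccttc

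The Dnajb12 window, printed beside that of Dnajb6 as the class B gene that moved the other way, holds none of the searched letters.

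The 23 class C J-proteins, a mixed group with a J-domain and little else in common, had a median log2 fold change of -0.01 at 15 mg/kg, where Dnajc19 and Dnajc12 rose and Dnajc7 fell. Over all tested rows 7.57% rose and 6.61% fell at that dose. Without the 8 libraries Dnajc19 alone of the 23 was called, beside 5.31% of all rows. Dnajc12 rose by 0.42 ± 0.13 (adjusted p = 0.0242), from a median of 3.75 to 5.03, and was not called without the 8 libraries (0.24, adjusted p = 0.434) or without control replicate 6 alone (0.37, adjusted p = 0.0523). Dnajc7, which binds both HSP70 and HSP90, was 9.87 to 18.6 in the 6 libraries that stand apart at 15 mg/kg and 17.5 to 35.2 in the other 7. The control library and the 150 mg/kg library that stand apart had 16.6 and 17.5, each the lowest value of its group. The log2 fold change of Dnajc7 was -0.51 ± 0.15 (adjusted p = 0.0157) with all libraries and -0.03 (adjusted p = 0.904) without the 8.

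At 150 mg/kg Dnajc4 was called beside Hspb8. It was 7.68 to 22.1 in control mice (median 18.7), 8.96 to 25.0 at 1.5 mg/kg (median 13.2), 12.3 to 23.4 at 15 mg/kg (median 17.1) and 4.92 to 15.8 at 150 mg/kg (median 13.0). All 14 mice at 150 mg/kg were below the control median and 1 was below every control mouse. The log2 fold change was -0.48 ± 0.13 (adjusted p = 0.039, limma) and -0.50 without the 8 libraries (adjusted p = 0.0404). It lost its call in 15 of 28 fits that left out 1 mouse (-0.48 to -0.39, adjusted p up to 0.0804). Dnajc9, a J-protein that also handles histones, was called at 1.5 mg/kg without the 8 libraries (-0.49, adjusted p = 0.0277) but not with all (-0.47 ± 0.14, adjusted p = 0.0793), and it is named after its values were seen.

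**Figure D4:**
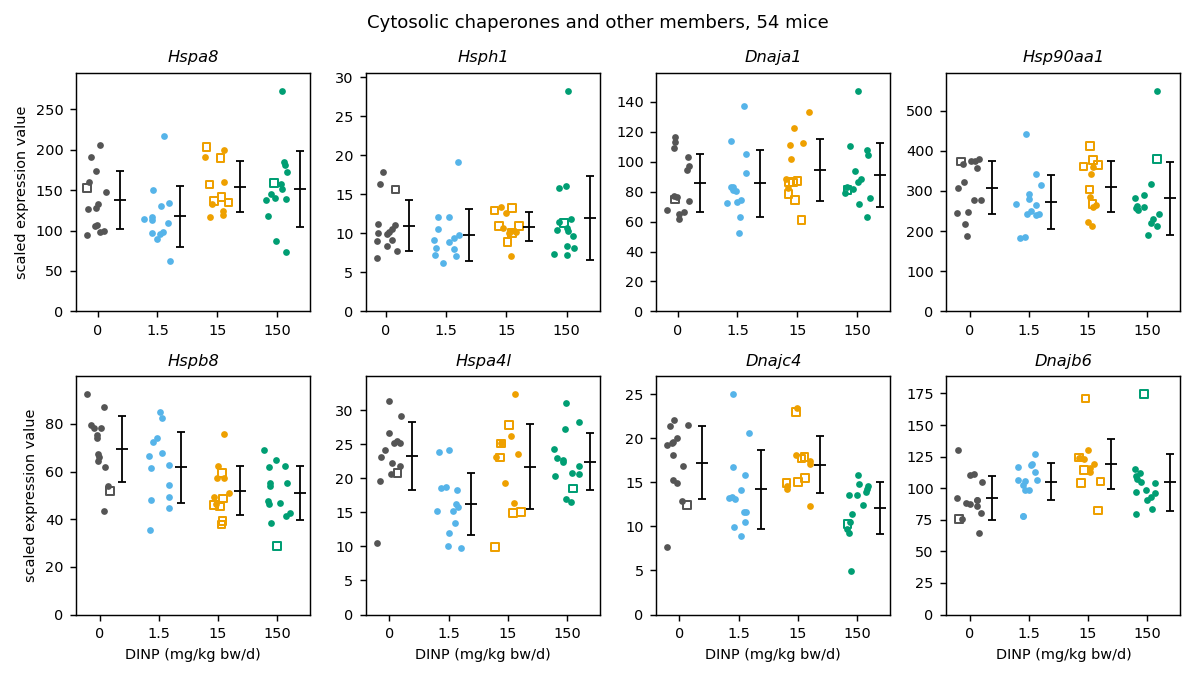
Scaled expression value (vertical axis, from 0) of 8 cytosolic and other chaperone genes in each of 54 mice by DINP dose (horizontal axis, mg/kg bw/d). Points are mice, open squares the 8 libraries that stand apart, and black bars the group mean ± SD. Hspa8, Hsph1, Dnaja1 and Hsp90aa1 overlap between groups, all 14 mice at 150 mg/kg are below the control medians of Hspb8 (70.7) and Dnajc4 (18.7), and Hspa4l is lowest at 1.5 mg/kg (median 15.7).

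The number of called genes did not grow with the dose. Between 15 and 1.5 mg/kg 19 of 55 genes were called (21.4% of all rows), 14 of them higher at 15 mg/kg (10.9% of all rows), and without the 8 libraries 11 were (5.06% of all rows). Between 150 and 15 mg/kg 14 were called (20% of all rows), 4 of them higher at 150 mg/kg (9.85% of all rows), and without the 8 libraries 8 were (8.34% of all rows). Between 150 and 1.5 mg/kg 5 were called (all rows 4.61%) and 6 without the 8 libraries (all rows 6.88%). A log2 fold change beyond 0.5 was also reached by 5, 6 and 0 genes in these comparisons (7.15%, 6.73% and 1.64% of all rows). In the 46 libraries there were 3, 1 and 0 (1.21%, 2.81% and 1.98% of all rows): Dnajc19, Hspa4l and Hspe1 between 15 and 1.5 mg/kg, and between 150 and 15 mg/kg Hspb1, which is not among the 6. These comparisons share groups with those above and are not independent of them.

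Hspe1, Dnajc19 and Tcp1 were lower at 150 than at 15 mg/kg. The log2 fold changes were -0.74 ± 0.12 for Hspe1 (adjusted p = 1.05e-05), -0.78 ± 0.12 for Dnajc19 (adjusted p = 3.13e-06) and -0.57 ± 0.09 for Tcp1 (adjusted p = 8.12e-06, limma). In the other 46 libraries they were -0.32, -0.43 and -0.44, all called (adjusted p from 0.00111 to 0.003). Hspd1 and Hspa9 were higher at 150 than at 1.5 mg/kg with and without the 8 libraries, by 0.25 ± 0.06 and 0.24 for Hspd1 (adjusted p = 0.0116 and 0.0122) and by 0.18 ± 0.05 and 0.16 for Hspa9 (adjusted p = 0.0243 and 0.0137).

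Within groups, Hspa8 and its partners varied together between mice. Deviations from the group mean of log2(value + 1) were compared over the 46 libraries, since the 8 form a cluster of their own, for 5 pairs of genes with a 2-sided permutation test of 100000 resamples within groups. Hspa8 and Hsph1 had Pearson's r = 0.825 and Spearman's rho = 0.74, and Hspa8 and Dnaja1 had r = 0.649 and rho = 0.584. For Hspa8 and Cirbp, a cold-inducible RNA-binding protein that is no chaperone, r was -0.615 and rho -0.648. The permutation p of each r was 1e-05, the smallest that these resamples can give, and 1.67e-05 after adjustment over the 5 pairs.

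Without the 2 mice farthest from the median of Hspa8, r was 0.786 with Hsph1, 0.541 with Dnaja1 and -0.584 with Cirbp. Within the control, 1.5, 15 and 150 mg/kg groups (n = 13, 13, 7 and 13 mice), r of Hspa8 and Hsph1 was 0.741, 0.903, 0.837 and 0.824 (permutation p from 5e-05 to 0.00261). With Cirbp it was -0.691, -0.766, -0.761 and -0.329, and the values at 15 and 150 mg/kg were not distinguishable from 0 (permutation p = 0.0659 and 0.266). A single mouse, replicate 3 at 150 mg/kg, had the highest value of all 54 mice for Hspa8 (273), Hsph1 (28.2), Dnaja1 (147) and Hsp90aa1 (549).

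Hspd1 and Hspe1, the parts of a single complex, were related less closely, with r = 0.35 and rho = 0.347 over the 46 libraries (permutation p = 0.0252, adjusted p = 0.0252), and over all 54 libraries r was 0.163 (permutation p = 0.295). Within groups r was 0.122, 0.333, 0.852 and 0.107, with a permutation p of 0.688, 0.266, 0.0128 and 0.729, and the differences between these values were not tested. For Hspa1a and Hspa1b r was 0.417 (permutation p = 0.00574) and 0.241 without the 2 mice farthest from the median (permutation p = 0.244), at values of 0 or about 1 step.

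**Figure D5:**
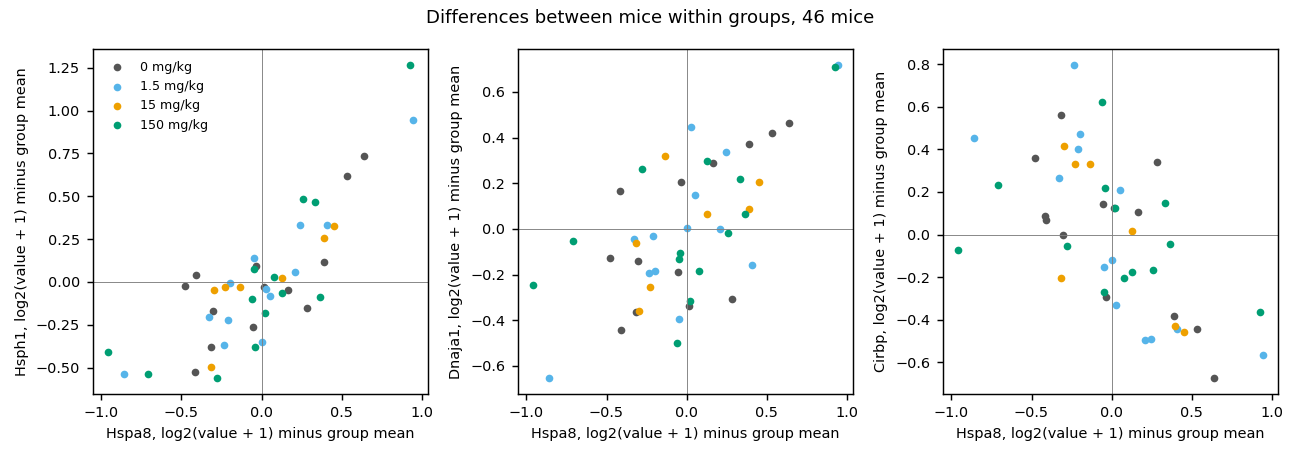
Deviation from the group mean of log2(value + 1) of Hsph1, Dnaja1 and Cirbp (vertical axes) against that of Hspa8 (horizontal axes) in 46 mice, coloured by DINP dose. Hsph1 (r = 0.825) and Dnaja1 (r = 0.649) are higher and Cirbp (r = -0.615) is lower in mice with more Hspa8.

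The genes that control or assist the chaperones were counted from fixed lists. For these lists and those below, the called share of all rows was 1.2%, 14.2% and 2.17% at 1.5, 15 and 150 mg/kg. Without the 8 libraries it was 2.53%, 5.31% and 3.62%. Heat shock factor 1 (Hsf1) had log2 fold changes of 0.07 ± 0.11, -0.04 ± 0.11 and -0.16 ± 0.11 (adjusted p from 0.549 to 0.85), and limma called none of the 5 tested genes of its list at any dose (1, 2 and 0 had an unadjusted p under 0.05), although without the 8 libraries Hsbp1, the factor's binding protein, was at 1.5 mg/kg (0.38 ± 0.09, adjusted p = 0.0181). Of 23 HSP90 co-chaperones, Ppid (0.55 ± 0.10, adjusted p = 0.000188) and Ptges3 (0.15 ± 0.05, adjusted p = 0.0449) rose at 15 mg/kg and were called without the 8 libraries too (0.43 and 0.20). In that smaller set Cdc37 (0.56), St13 (0.42) and Tomm34 (-0.33) were called as well. Stip1, which links HSP70 to HSP90, was not called (0.15, -0.26 and 0.09), and its value at 15 mg/kg was 0.05 in the 46 libraries.

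Of 8 tested nucleotide exchange factors and ubiquitin ligases that serve HSP70, Bag1 rose (0.24 ± 0.07, adjusted p = 0.0126) and Bag6 fell (-0.48 ± 0.09, adjusted p = 0.000203) at 15 mg/kg, and neither was called without the 8 libraries. The ubiquitin ligase Stub1 rose at 1.5 mg/kg (0.23 ± 0.06, adjusted p = 0.0372) and was called without the 8 libraries (0.22). Of 16 chaperones of the endoplasmic reticulum, Pdia4 fell at 1.5 mg/kg (-0.65 ± 0.16, adjusted p = 0.028) and Hyou1 at 15 mg/kg (-0.54 ± 0.18, adjusted p = 0.0371), of which Pdia4 alone was called without the 8 libraries.

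Temperature and time of day move chaperone transcripts in the liver, so markers of both were read beside the results, and their part was not tested. Cirbp was not called at any dose (0.21, -0.04 and -0.00), and Rbm3, another cold-inducible gene, was called at 15 mg/kg (0.55 ± 0.18, adjusted p = 0.0268) but not without the 8 libraries. Of 16 tested clock genes and outputs, 4 rose at 15 mg/kg, led by Usp2 (1.37 ± 0.37), Dbp (1.00 ± 0.28) and Per3 (0.75 ± 0.19, adjusted p from 0.00557 to 0.0125), and Per3 and Nr1d2 (0.46) were called without the 8 libraries. Of 13 immediate early genes, Jund fell at 15 and 150 mg/kg (-0.47 ± 0.11 and -0.41 ± 0.11, adjusted p = 0.00251 and 0.0312), also without the 8 libraries (-0.42 and -0.39).

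Promoter windows were held for 53 of the 68 genes. Heat shock element letters stood in those of 16 genes (30.2%), against 17% of 27025 genes with a window, E-box letters in 9.43% against 8.09% and CCAAT letters in 41.5% against 41.1%. Of 13 tested chaperone genes with a heat shock element match, 5 rose at 15 mg/kg (Cct2, Cct6a, Dnajb6, Hspd1 and Hspe1) and 1 fell (Hspb8), with a median log2 fold change of 0.11. Of 28 with a window but no match, 3 rose (Dnaja3, Dnajc19 and Tcp1) and 2 fell, with a median of -0.04. Over all tested rows 7.57% rose and 6.61% fell. Hspd1 and Hspe1 are not separate cases here, as windows of these genes share 285 bases and hold the same matches. Without the 8 libraries 3 rose with a match (Dnajb6, Hspd1 and Hspe1) and 3 without (Dnajc19, Hspa4 and Tcp1), beside 2.76% of all rows. The medians were then 0.13 and 0.04, and the difference between the sets was not tested. Hsph1 and Dnaja1 have the letters in their windows too and were not called, and Hspa1a and Hspa1b, which have them as well, were not tested.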

How the data were processed

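The authors made 3′ mRNA-Seq libraries of the 54 livers and, per the labels' processing notes, named GRCm38, STAR, Salmon and RSEM. The deposited table holds 1 signal value per gene and sample. From the values themselves, all nonzero entries were whole multiples (tolerance 0.01) of a step of 0.764 to 1.11 per sample, and the whole numbers summed to 948342 to 980641, so they were read as TPM, rounded and divided by a size factor of the authors. Values are scaled by transcript length although the libraries read transcript ends. Depth is unknown, and no count test was used.

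Rows with a mean of at least 1 (11431) were fitted on log2(value + 1) with limma 3.58.1 (R 4.3.3, lmFit and eBayes with a trend), all 4 groups in 1 model, with Benjamini-Hochberg adjustment over these rows. The procedure was tested on simulated data with known answers. These were independent normal values without a cluster of libraries, so they do not measure errors that the 8 libraries may bring. P-values measure the spread between mice, which were housed singly and randomized. Correlations (Python 3.11.15, scipy 1.17.1, numpy 2.4.6) used deviations from group means over 46 libraries instead of the planned 54, since 8 libraries form a separate cluster. Positions are from GENCODE M21, and promoter windows from RefSeq. Genes named in the text are a fixed panel of family members. At each dose, the called genes with up to 10 largest changes in each direction are named too. Cct7, Hspa4 and Dnajc9 are marked as named after their values were seen. Cct3, Cct5, Dnajc21, Hspb6 and genes under the filter are also named outside this rule, without a mark. The genes and lists were chosen with earlier results of these data known. Alternatives were another pseudocount, filter, scaling, weighting, rank test, the 2 groups compared alone, a replicate block, a fold minimum and leaving out each mouse. Leaving out the 8 libraries and using the first component as a covariate were chosen after seeing the data. 1 of the 55 tested genes is not reported here by name.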

Additional observations from a re-analysis of the deposited data

How the results depend on the processing

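The numbers of called genes depended on the processing, and the cause was not tested. Shares of all rows are given above for the main fit, the log2 fold change beyond 0.5 and the fit without the 8 libraries. For the other settings, the covariate among them, no such share is given. Their counts and directions were therefore not set against all rows. At 1.5 mg/kg against control (1 gene), 0 were called with no filter, rescaled samples, the replicate block or the Wilcoxon rank-sum test, and 2 with only the 2 groups compared, array quality weights, without the 8 libraries or with the first component as a covariate. At 15 mg/kg (14) the count was 3 with a log2 fold change beyond 0.5 required, 6 without the 8 libraries and 11 with the covariate, all 11 of them higher. At 150 mg/kg (2) it was 1 with no filter or only the 2 groups, 0 by Wilcoxon or with 0.5 required, and 5 with the covariate. Between 15 and 1.5 mg/kg (19) it was 5 with 0.5 required, 11 without the 8 libraries and 10 with the covariate. Between 150 and 15 mg/kg (14) it was 9 by Wilcoxon, 6 with 0.5 required and 8 without the 8 libraries. Between 150 and 1.5 mg/kg (5) it was 3 with no filter, 2 when rescaled and 0 with 0.5 required. Leaving out 1 mouse gave 0 to 2, 13 to 17, 0 to 2, 15 to 20, 11 to 16 and 3 to 5 in this order, with 0 at 150 mg/kg without control replicate 10 or 150 mg/kg replicate 10, and 3 between 150 and 1.5 mg/kg without 1.5 mg/kg replicates 3, 6, 8 or 12 or 150 mg/kg replicate 6. The replicate block gave 13, 17, 13 and 4 in the comparisons with 14, 19, 14 and 5. The numbers do not pair mice: same-numbered samples had a mean correlation of -0.0025 over 79 pairs.

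Correlations lost their call in part: Hspd1 and Hspe1 within control (0.122), 1.5 (0.333) and 150 mg/kg (0.107) and over all 54 mice (0.163); Hspa1a and Hspa1b without 2 mice (0.241), within control (0.245), 1.5 (0.42) and 150 mg/kg (1) and over 54 mice (0.283); Hspa8 and Dnaja1 within 15 (0.584) and 150 mg/kg (0.563); Hspa8 and Cirbp within 15 (-0.761) and 150 mg/kg (-0.329). No call against control changed sign under these settings. Signs of uncalled genes turned for Hspb1 at 1.5 mg/kg (0.00293 with a pseudocount of 5, 0.0504 with array weights, 0.0105 without the 8 libraries, 0.137 with the covariate), Hspe1 at 1.5 mg/kg (0.000545 with the covariate), Cct8 at 15 and 150 mg/kg when rescaled (-0.00874 and -0.0304), Dnaja1 at 150 mg/kg when rescaled (-0.00296), Hsp90aa1 at 15 mg/kg (-0.0645 with quantile normalization, -0.0372 rescaled, -0.00389 with the block, -0.114 without the 8 libraries, -0.104 with the covariate), Hsp90ab1 at 15 mg/kg (-0.078 with quantile normalization, -0.0288 rescaled) and Hsph1 at 15 mg/kg (-0.0343 rescaled, -0.015 with the block, -0.0486 with the covariate) and 150 mg/kg (-0.0182 rescaled). Leaving out 1 mouse gave a range across 0 for Dnaja1 (-0.0690 to 0.0452) and Hspb1 (-0.0738 to 0.0852) at 1.5 mg/kg, Hsp90aa1 (-0.0365 to 0.0592), Hsp90ab1 (-0.0257 to 0.0637) and Hsph1 (-0.0296 to 0.0674) at 15 mg/kg and Hsph1 at 150 mg/kg (-0.0300 to 0.121). Of the remaining values of single genes, 656 kept direction and call, 50 lost and 2 gained a call. Depth is unknown, so genes of about 1 step, such as Hspa1a and Hspa1b, were not resolved.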
